A study of Mus musculus with 6 samples.

Results

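The genes that build cholesterol and fatty acids were examined in neural progenitor cells (NPCs) of mouse that lack SETD2. The group was defined as 32 named genes, and a gene counted as a member where its symbol was listed in the authors' deposited table of differential expression. Of the 32 symbols, 30 were found among the 15095 genes of the table, whereas Hmgcs1 and Tm7sf2 were not found under these symbols. The series holds polyA RNA-seq of 6 libraries, 3 from Setd2-KO NPCs and 3 from WT NPCs. SETD2 is the methyltransferase that places H3K36me3 on the bodies of transcribed genes. The Setd2-KO cells are an embryonic stem cell line edited with CRISPR, and the libraries' labels do not say which clone was used. Cells of both genotypes were grown as aggregates in serum medium for 4 days without retinoic acid and for 4 further days with 5 uM of it, and were collected at day 8.

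Cells make cholesterol from acetyl-CoA through mevalonate, farnesyl diphosphate, squalene and lanosterol. When sterols in the membrane of the endoplasmic reticulum run low, SCAP escorts the transcription factor SREBP2 to the Golgi, where it is cleaved and released to activate the genes of this route, whereas INSIG1 holds the complex back when sterols are plentiful. SREBP1, the product of Srebf1, acts in the same manner and mainly drives the synthesis and desaturation of fatty acids, which growing neural cells need for new membrane.

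For each gene the table lists the log2 fold change, the mean abundance across all 6 libraries as log2 CPM (read counts scaled to library size, not to gene length), and the p with its false discovery rate (FDR). Values of single libraries are not in it. Their depth is therefore unknown, no SD can be given, and whether the genotypes overlap for a gene cannot be seen. The CPM given below for a genotype is the level implied by the average and the fold change with both genotypes weighted equally. The authors' test asks whether a change exceeds an absolute log2 fold change of 1, and a gene was called at an FDR under 0.05. A gene that is not called is therefore not shown to be unchanged, and the smallest absolute log2 fold change called was 1.09. The labels do not say whether replicate libraries are separate differentiations, so that p reflects variation among libraries that could be purely technical. In bulk RNA, fewer cells of a type and less RNA per cell cannot be told apart.

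The source label of the libraries reads as embryonic stem cells, whereas the titles name NPCs. Of 12 NPC markers, 11 were found, with average log2 CPM between 3.56 and 9.82, and Sox1 was not found. Of these 11, Fabp7, a fatty acid binding protein of radial glia, fell (-2.91) and the others were not called. The 11 had a median log2 fold change of -0.034, with 5 above and 6 below 0 and Pax6 highest (0.74). Of 8 pluripotency markers, 7 were found, between -0.19 and 3.85, and Dppa3 was not found. Setd2 itself had a log2 fold change of -0.44 and an FDR of 1, which does not check the genotype, since an edited transcript can remain. Neuron markers were lower as a group: all 10 had log2 fold changes below 0, with a median of -0.88, and Gap43 (-1.32) and Nefm (-1.21) fell. The summed implied level of these 10 genes was 1639 CPM in Setd2-KO NPCs and 3232 CPM in WT NPCs. Of 11 markers of visceral endoderm and liver found (Alb was not found), Afp (2.78), Apob (1.55), Apoa1 (1.43) and Ttr (1.33) rose and the other 7 were not called. Of the 11, 4 had log2 fold changes below 0, from Gata4 (-0.96) and Gata6 (-0.54) to Apoa4 (-0.32) and Hnf4a (-0.059). The list summed to 146 CPM in Setd2-KO NPCs and 109 CPM in WT NPCs. The part of these cell types in the values below was not tested.

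None of the 30 members was called. The authors' test (glmTreat of edgeR) gave 0 members at an FDR under 0.05 and 0 at an unadjusted p under 0.05, and every member had a p that rounds to 1. Among all 15095 genes, 2.11% were called lower and 1.54% were called higher in Setd2-KO NPCs. Log2 fold changes of the members ran from -0.60 to 0.53 with a median of -0.022, and 14 were above and 16 below 0. The median over all genes was 0.0089. Past 1.5-fold, a bound used here with no test, lay 1 member, Scd2, in the lower direction and 0 in the higher, while 12.6% of all genes lay past it lower and 10.6% higher.

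Most fold changes of the members lay close to 0. Their average log2 CPM ran from 3.88 to 10.6 with a median of 6.63, against a median of 4.57 over all genes. Within 0.2 of 0 on the log2 scale were 22 members (73.3%), against 36.5% of all genes and 43.1% of the 10244 genes whose average log2 CPM reached 3. The median of average log2 CPM over those 10244 genes was 5.52, below that of the members, so they are not matched for abundance. The SD of the log2 fold changes across members was 0.25, against 0.59 across all genes and 0.44 across those 10244. These are descriptions of the spread between genes, not errors of any gene. The summed implied level of the members was 5094 CPM in Setd2-KO NPCs and 5914 CPM in WT NPCs. Within these sums, Scd2 alone held 1226 CPM in Setd2-KO NPCs and 1857 CPM in WT NPCs.

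**Figure D1:**
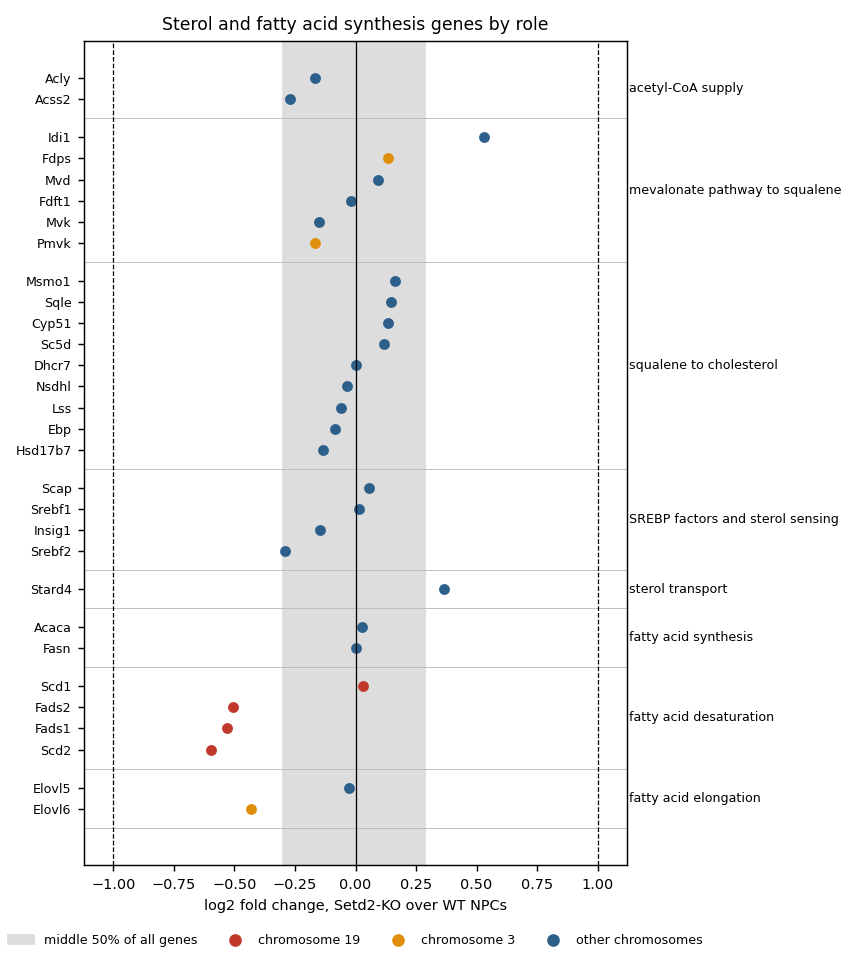
Log2 fold change (Setd2-KO over WT) of each of the 30 members, grouped by role and coloured by chromosome; the grey band holds the middle 50% of all genes and dashed lines mark -1 and 1. The 9 enzymes from squalene to cholesterol lie between -0.14 and 0.16, while Scd2, Fads1 and Fads2 have the lowest values and Idi1 the highest.

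**Figure D2:**
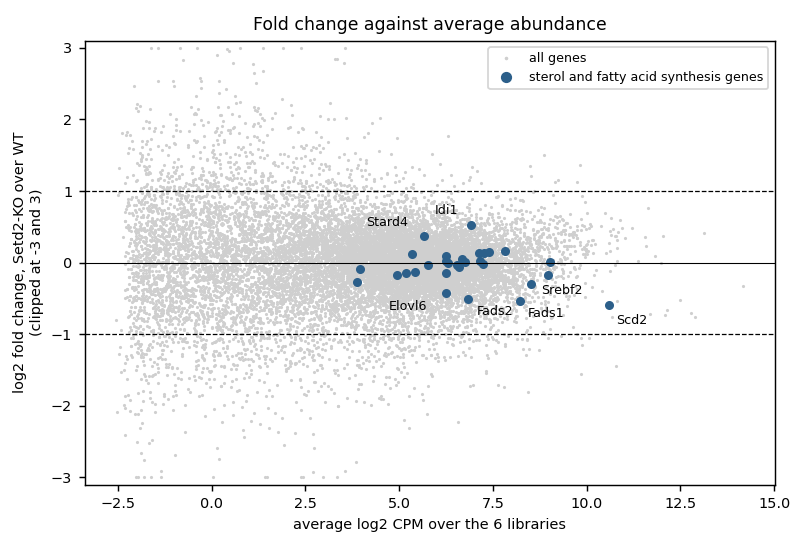
Log2 fold change (Setd2-KO over WT) against average log2 CPM for the genes of the table, with the 30 members in blue and dashed lines at -1 and 1. The members lie at average log2 CPM between 3.88 and 10.6 and none is beyond an absolute log2 fold change of 0.60.

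Acetyl-CoA for both routes comes from 2 of the members. Acly, the citrate lyase that makes cytosolic acetyl-CoA from citrate, had a log2 fold change of -0.17, with implied levels of 477 CPM in Setd2-KO NPCs and 535 CPM in WT NPCs. Acss2, which makes acetyl-CoA from acetate, had -0.27, at 13.3 CPM in Setd2-KO NPCs and 16.1 CPM in WT NPCs, the lowest average log2 CPM among members. Acss2 overlaps Ggt7 (-1.70) and Gss (0.069) on the opposite strand. In all, 9 members overlap a gene of the table on the opposite strand, and the sources do not state if reads were counted by strand.

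Of the 6 enzymes from mevalonate to squalene, 5 lay within 0.2 of 0. Mvk and Pmvk, the kinases that phosphorylate mevalonate, had log2 fold changes of -0.15 and -0.17. Mvd, which decarboxylates the product to isopentenyl diphosphate, had 0.093. Fdps, the farnesyl diphosphate synthase, had 0.13, and Fdft1, the squalene synthase that commits the pathway to sterols, had -0.017. Idi1 stood apart in this group. It encodes the isomerase that interconverts isopentenyl and dimethylallyl diphosphate, and it had the highest value of all members, 0.53, with 142 CPM in Setd2-KO NPCs and 98.0 CPM in WT NPCs. Of all genes, 12.2% had a higher fold change. It was not called, with an FDR of 1. Among the 31-base words of the Idi1 transcripts, 18.4% also occur in other genes, most of them in the pseudogene Idi1-ps1. The Idi1 level is uncertain for this reason, by an amount not measured, since a share of words is not a share of reads. The share was 14.6% for Fdps and 11.9% for Fdft1, and 26 members had 10% or less.

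The 9 enzymes that turn squalene into cholesterol all had values within 0.2 of 0. Sqle, the squalene epoxidase, had a log2 fold change of 0.15 with 176 CPM in Setd2-KO NPCs and 159 CPM in WT NPCs. Lss, which closes the ring system to lanosterol, had -0.060, and Cyp51, which removes the first methyl group, had 0.14 and overlaps Akap9 (-0.54) on the opposite strand. Msmo1, Nsdhl and Hsd17b7 remove further methyl groups from the ring. Msmo1 had 0.16, with 239 CPM in Setd2-KO NPCs and 213 CPM in WT NPCs. Nsdhl had -0.036 and Hsd17b7 had -0.14. The last steps move and reduce double bonds: Ebp had -0.083, Sc5d had 0.12 and Dhcr7, the final reductase, had 0.00028. Over all 15 enzymes from mevalonate to cholesterol the median was 0.00028, with 14 within 0.2 of 0.

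The factors that sense sterols were likewise uncalled. Srebf2, the transcription factor of sterol synthesis, had a log2 fold change of -0.29, with 326 CPM in Setd2-KO NPCs and 400 CPM in WT NPCs. Srebf1 had 0.016, with 108 CPM in Setd2-KO NPCs and 107 CPM in WT NPCs. Scap, the escort protein, had 0.054, at 104 CPM in Setd2-KO NPCs and 100.3 CPM in WT NPCs. Insig1, the retention protein and itself a target of SREBP, had -0.15, at 72.0 CPM in Setd2-KO NPCs and 79.6 CPM in WT NPCs. All 4 had an FDR of 1. Stard4, a soluble carrier that moves cholesterol between membranes, had the second-highest value among members, 0.37, with 57.4 CPM in Setd2-KO NPCs and 44.5 CPM in WT NPCs, and 19.8% of all genes had a higher one.

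Fatty acid synthesis proper showed values near 0. Acaca, the carboxylase that makes malonyl-CoA, had a log2 fold change of 0.025, and 31.1% of its transcripts' 31-base words also occur in other genes, most of them in Gm5182. Fasn, the synthase that builds palmitate, had 0.0022, with 517 CPM in Setd2-KO NPCs and 516 CPM in WT NPCs. Elongation differed between its members by 0.40 on the log2 scale, with no test of that difference. Elovl6, which lengthens palmitate to stearate, had -0.43 at 65.0 CPM in Setd2-KO NPCs and 87.5 CPM in WT NPCs, whereas Elovl5, which acts on polyunsaturated chains, had -0.027.

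The desaturases, which put double bonds into fatty acids, held the 3 lowest values. Scd2, the stearoyl-CoA desaturase that leads in the mouse brain, had the highest average log2 CPM of the members (10.6) and a log2 fold change of -0.60, with 1226 CPM in Setd2-KO NPCs and 1857 CPM in WT NPCs. Fads1 had -0.53, with 245 CPM in Setd2-KO NPCs and 354 CPM in WT NPCs. Fads2 had -0.50, with 94.0 CPM in Setd2-KO NPCs and 133 CPM in WT NPCs. Fads1 and Fads2 encode the enzymes that desaturate the precursors of arachidonic and docosahexaenoic acid. None of the 3 was called (FDR of 1 each), and 12.2%, 14.2% and 15.2% of all genes had lower fold changes than Scd2, Fads1 and Fads2. Scd1, a second stearoyl-CoA desaturase, had 0.029, with 76.2 CPM in Setd2-KO NPCs and 74.7 CPM in WT NPCs. Scd1 minus Scd2 was 0.63 on the log2 scale, which has no test here.

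All 4 desaturases lie on chromosome 19, the only members there (GRCm39). Fads2 spans chr19:10038130-10079203 and Fads1 chr19:10160167-10174241, while Scd2 spans chr19:44281613-44295303 and Scd1 chr19:44382894-44399154. The 509 genes of this chromosome in the table had a median log2 fold change of -0.37, and 80.4% of them were below 0, whereas the medians of the other chromosomes ran from -0.079 to 0.081. Against the median of chromosome 19 the difference was -0.23 for Scd2, -0.16 for Fads1, -0.14 for Fads2 and 0.40 for Scd1. Genes within 5 Mb had medians of -0.38 around Scd2 (114 genes), -0.49 around Fads1 (158 genes) and -0.50 around Fads2 (168 genes). Less these, Scd2 was at -0.22, Fads1 at -0.038 and Fads2 at -0.0049. The other desaturases of these neighbourhoods were Scd3 (0.014), Scd4 (-0.14) and Fads3 (0.44), all at lower average log2 CPM than the members beside them. The 26 members outside chromosome 19 had a median of -0.0085, with 13 above and 13 below 0 and 0 past 1.5-fold.

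Elovl6 lies on chromosome 3. The chromosome's median was -0.079, but the 37 genes within 5 Mb of Elovl6 had a median of -0.36, from which Elovl6 differed by -0.074. Idi1 and Stard4 differed from their surroundings in the other direction: the 24 genes around Idi1 on chromosome 13 had a median of -0.036 and the 103 genes around Stard4 on chromosome 18 one of -0.15, which lie 0.57 and 0.51 below these members. Whether a change along these regions sets the members' values was not tested.

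**Figure D3:**
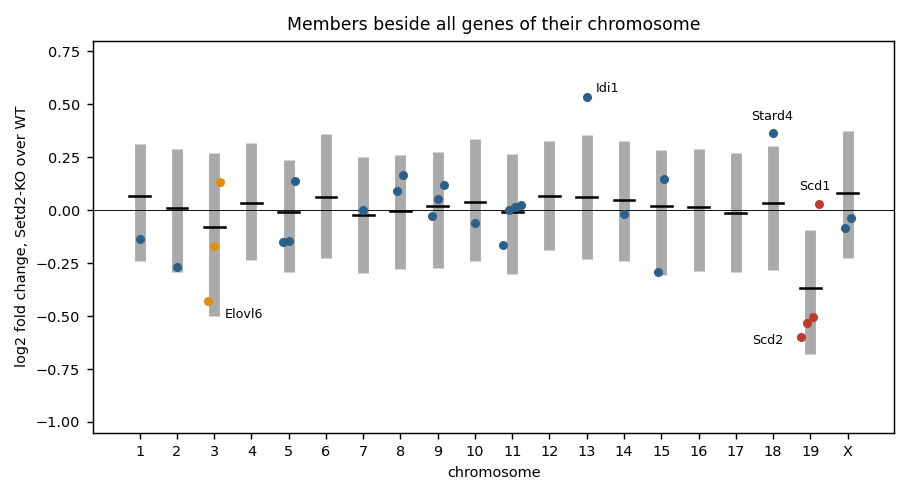
Log2 fold change (Setd2-KO over WT) of the members by chromosome (points), with the median (black line) and the middle 50% (grey bar) of all genes on that chromosome. Chromosome 19 has the lowest median, -0.37, and Scd2, Fads1 and Fads2 lie below it, while Scd1 lies above.

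The gene ID that the reference gives to Tm7sf2, the sterol reductase missing by symbol, carries the symbol Vps51 in the table. It had a log2 fold change of -1.005, with 40.9 CPM in Setd2-KO NPCs and 82.0 CPM in WT NPCs, a p of 0.225 in the authors' edgeR test and an FDR of 1. It lies on chromosome 19, where the genes within 5 Mb had a median of -0.51. Which gene's reads the value holds was not settled, and it was not counted as a member. For Hmgcs1, by contrast, no gene ID matched to the reference carries that name there.

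Promoter sequence upstream of the transcription start was compared because SREBP acts at these genes together with NF-Y, which binds CCAAT. This word was searched on both strands in the 250 bases upstream of each listed start, and a gene with several starts counts if any of them holds it. It occurs in 18 of the 23 members with an entry in the RefSeq promoter table (78.3%), against 40.4% of 11669 genes of the table with one. The 150 bases next to the start are shown for the members with the highest and lowest values that have an entry and for Srebf2, from RefSeq on GRCm38.p6: Idi1 at chr13:8885456-8885605 (plus strand), Fads2 at chr19:10101504-10101653 (minus strand), Elovl6 at chr3:129532236-129532385 (plus strand) and Srebf2 at chr15:82147119-82147268 (plus strand). Capitals mark this word, which reads as ATTGG where it lies on the opposite strand.
Idi1: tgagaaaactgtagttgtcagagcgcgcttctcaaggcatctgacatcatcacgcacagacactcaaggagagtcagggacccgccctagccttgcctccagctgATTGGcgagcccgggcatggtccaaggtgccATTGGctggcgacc
Fads2: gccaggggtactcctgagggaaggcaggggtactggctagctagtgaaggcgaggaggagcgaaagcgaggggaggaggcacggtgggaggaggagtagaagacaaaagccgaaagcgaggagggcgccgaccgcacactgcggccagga
Elovl6: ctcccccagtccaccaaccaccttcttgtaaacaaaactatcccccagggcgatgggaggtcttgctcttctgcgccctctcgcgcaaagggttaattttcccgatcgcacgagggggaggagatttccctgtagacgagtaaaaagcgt
Srebf2: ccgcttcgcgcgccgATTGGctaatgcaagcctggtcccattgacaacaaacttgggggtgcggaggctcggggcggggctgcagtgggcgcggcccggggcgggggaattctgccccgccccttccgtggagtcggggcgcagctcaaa
Idi1 holds 2 such words and Srebf2 holds 1, while Fads2 and Elovl6 hold 0 in the same window and in all 250 bases. The sequences shown do not stand for the other members. In 250 bases, Mvk (log2 fold change of -0.15) holds 5, Msmo1 (0.16) holds 3 and Acaca (0.025) holds 0. Whether the number of words follows the fold change was not tested. A match describes the letters only, and no match says nothing about the factor.

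Genes of the neighbouring pathways outside the members were examined by list. With 2.11% of all genes called lower and 1.54% higher, 0 called in lists this short says little. Of 9 other sterol synthesis genes found, 0 were called by the authors' edgeR test and 0 had an unadjusted p under 0.05, with Cyb5r3 lowest (-0.28), Lbr highest (0.43) and a median of 0.11. The 10 genes found of SREBP processing and its regulators had a median of 0.035. Of 26 other fatty acid synthesis genes found, 0 were called by the authors' edgeR test and 1, Acsl5, had an unadjusted p under 0.05 (p of 0.0156, FDR of 0.322), with Acsl5, on chromosome 19, lowest (-1.10), Acacb highest (0.96) and a median of 0.13.

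**Figure D4:**
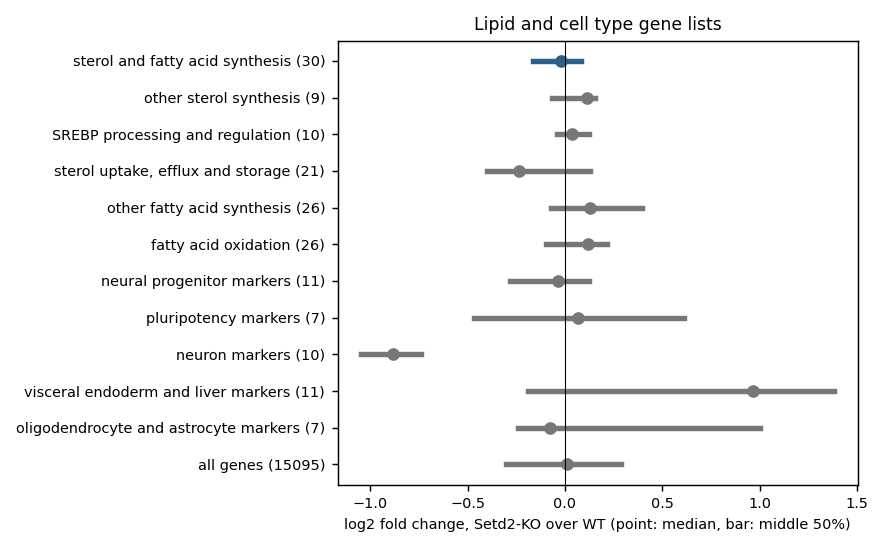
Log2 fold change (Setd2-KO over WT) by gene list, with the median as a point, the middle 50% as a bar and the number of genes in brackets. The median of the members is -0.022, while the 10 neuron markers all lie below 0 with a median of -0.88.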

How the data were processed

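PolyA RNA of 3 Setd2-KO and 3 WT NPC samples was sequenced from directional libraries. The deposited values are log2 fold changes, average log2 CPM, p-values and FDR of the authors' edgeR test, glmTreat, whose null was a change of up to 1 on the log2 scale, and an unshrunk fold column. The submitters' notes name Trim Galore, STAR, edgeR and the builds NCBIM37 and mm9, while the methods of the study name GRCm39, GENCODE M35 and Salmon. The authors' trimming, counting, filter on low counts and TMM normalization are therefore contained in the values and cannot be repeated. Depth per library is unknown.

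The sign was turned to Setd2-KO over WT after comparison with the directions written in a supplementary gene list (518 of 523 shared genes then had the same sign). The Benjamini-Hochberg adjustment was recomputed over 15095 genes and gave the deposited FDR. Gene IDs were matched to GENCODE vM39 on GRCm39 (15066 found, 29 not). Members and lists were chosen with earlier results of these data known. Named were all members, with full values for the 4 highest and 4 lowest, Srebf1, Srebf2, Scap, Insig1 and Setd2. From each other list the called genes or else the extremes were named. Scd3, Scd4, Fads3, Vps51, Pax6, Osbp, Lipa and Vldlr were added after their values were seen. Some genes that the rule names are not reported here. Words of 31 bases shared with other genes were counted over the reference transcripts. Alternatives were other FDR bounds, adjustments, filters, fold bounds and chromosome or 5 Mb baselines. The steps were tested on simulated data. Python 3.11.15 with numpy 2.4.6, pandas 2.3.3 and scipy 1.17.1 was used, and 0 columns of unmapped samples were present.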

Additional observations from a re-analysis of the deposited data

How the results depend on the processing

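The number of members called was 0 under all alternatives run (FDR under 0.01 or 0.1, Bonferroni, Benjamini-Yekutieli, an unadjusted p under 0.05, and average log2 CPM of at least 0 or 3), all on the authors' edgeR p-values. The members' median log2 fold change, -0.022, lay between -0.054 and -0.0085 under the alternatives, and their mean was -0.060. The 1 member past 1.5-fold lower became 4 at a bound of 0.32 on the log2 scale, 0 at 2-fold and 0 less the median of the same chromosome, and the 0 past it higher became 2 at that bound, past which lay 23.8% of all genes lower and 22.6% higher. The median of the chromosome 19 members less that of the chromosome, -0.15, was -0.021 against the genes within 5 Mb. The 5 Mb baselines of single genes were chosen after seeing the data. No paired analysis was possible because the table holds no values per library, and leaving out each library was not run for the same reason.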

Other observations

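The lists for sterol traffic and fatty acid oxidation held no called gene. Of all genes, 2.11% were called lower and 1.54% higher, so 0 called in lists this short says little. Log2 fold changes below 0 were held by 49.2% of all genes. Of 21 genes of sterol uptake, efflux and storage, all were found, 15 were below 0 and the median log2 fold change was -0.23, with 0 called at an FDR and 0 at an unadjusted p under 0.05 in the authors' edgeR test. Ch25h, which makes an oxysterol, was lowest (-0.77, at an average log2 CPM of -2.24), and Npc1l1 was highest (0.77, at an average log2 CPM of 0.38). Ch25h lies on chromosome 19, whose genes had a median of -0.37, as do Osbp (-0.50), Lipa (-0.21) and Vldlr (-0.099) of this list. The summed implied level of the 21 genes was 1155 CPM in Setd2-KO NPCs and 1265 CPM in WT NPCs.

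Of 26 genes of fatty acid oxidation, all were found, 19 were above 0 and the median was 0.12, with 0 called at an FDR and 0 at an unadjusted p under 0.05 in the same test. Decr1, a reductase used for unsaturated chains, was highest (0.56). Cpt1a, which loads fatty acids for import into mitochondria, was lowest (-0.77) and lies on chromosome 19, whose genes had a median of -0.37. The summed implied level was 1031 CPM in Setd2-KO NPCs and 994 CPM in WT NPCs. Over all genes the median was 0.0089, and 49.2% were below 0.

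Olig1 rose (2.07) among the 7 found of 10 oligodendrocyte and astrocyte markers, with Aqp4, Mog and S100b not found.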
